A study of Mus musculus with 2 samples.

Results

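The 9 genes described here encode transcription factors of the mouse hair follicle: Lhx2, Nfatc1, Sox9, Tcf7l1, Tbx1, Runx1, Foxc1, Msx2 and Gata3. They were taken as every probe set that the array's platform annotation assigns to exactly 1 of these genes, which gave 23 probe sets for 9 of the 18194 named genes on the array. Probe sets annotated as Tcf3 carry the gene identifier of a different gene, the E2A factor, and were not counted for Tcf7l1, whose older name was also Tcf3. Expression was measured in CD34+ epithelial cells that had been sorted out of mouse skin tumours, with stains for CD34, α6-integrin and Epcam and a shared dye for the blood, endothelial and mesenchymal antigens CD45, CD31 and CD140a. A single Affymetrix array (Mouse Genome 430 2.0) was run for wild-type and a single one for K14CreER:Rosa-VEGF-164, called the VEGF-labelled array here. Both groups had received DMBA, a mutagen, at postnatal days 23, 25 and 27, repeated TPA, a phorbol ester that promotes tumour growth, and further DMBA at 7 weeks of age. The second genotype carries a VEGF-164 transgene at the Rosa locus and an inducible Cre recombinase driven by the keratin 14 promoter, so the transgene is meant for basal keratinocytes and their descendants. How Cre was induced, and how many tumours or animals stand behind an array, the sources used here do not give.

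The hair follicle renews itself from stem cells in its bulge, a CD34-expressing region of the outer root sheath, and chemically induced skin tumours of mice also hold CD34-expressing epithelial cells. Lhx2, Nfatc1, Sox9, Tcf7l1, Tbx1, Runx1 and Foxc1 are known in mouse skin for keeping bulge cells in place, holding them at rest or letting them enter the cycle. Msx2 and Gata3 act further along, in the hair matrix and shaft and in the inner root sheath.

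The values are MAS5 signals, a summary of the short probes of each set, and each gene is represented below by its brightest probe set unless another is named. Each log2 ratio has the VEGF-labelled array above and wild-type below. Background was taken from 80 olfactory and vomeronasal receptor probe sets and lay at signals of 19.9 for wild-type and 11.3 for VEGF. A signal below it was raised to it, and the ratio is then a bound, written "at least". With 1 array per genotype there is no replicate error and no test, and genes were counted by size, at 2-fold. The only error available is the disagreement between the 2 brightest probe sets of the same gene, an SD of 0.50, 0.42 and 0.32 on the log2 scale in the lowest, middle and highest tertile of signal over 4887 genes, which leaves out any spread between mice, tumours or sorts. Signals of different probe sets are not on a common scale of abundance, so the 9 genes are ordered by their ratios and not by their levels. In sorted cells measured in bulk, fewer cells that express a gene and less RNA per cell cannot be told apart.

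For 7 of the 9 genes RefSeq promoter windows of the build GRCm38.p6 were used, each 300 bases long, from 250 bases before a transcription start to 50 bases after it. No window was used for Nfatc1 or Sox9. Windows of the 9 genes were filtered by chromosome, and those behind the shares over all windows were not. 4 windows are shown because they cover the gene with the lowest ratio and the 3 genes whose windows hold a motif match and whose ratios were below 0. Capitals mark matches on either strand to the core motifs searched.
Lhx2, chr2:38339031-38339330, plus strand: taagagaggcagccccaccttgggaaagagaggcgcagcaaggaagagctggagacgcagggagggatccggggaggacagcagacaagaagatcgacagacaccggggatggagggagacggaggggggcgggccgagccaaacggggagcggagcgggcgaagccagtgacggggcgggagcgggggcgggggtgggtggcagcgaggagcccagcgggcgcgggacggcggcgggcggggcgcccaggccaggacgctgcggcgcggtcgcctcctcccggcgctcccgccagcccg
Msx2, chr13:53472731-53473030, minus strand: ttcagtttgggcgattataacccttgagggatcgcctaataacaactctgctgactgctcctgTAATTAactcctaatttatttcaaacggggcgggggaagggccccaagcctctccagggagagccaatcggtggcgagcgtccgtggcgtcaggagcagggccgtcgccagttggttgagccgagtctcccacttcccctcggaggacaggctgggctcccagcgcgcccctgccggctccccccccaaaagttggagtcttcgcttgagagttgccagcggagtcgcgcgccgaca
Tcf7l1, chr6:72788996-72789295, minus strand: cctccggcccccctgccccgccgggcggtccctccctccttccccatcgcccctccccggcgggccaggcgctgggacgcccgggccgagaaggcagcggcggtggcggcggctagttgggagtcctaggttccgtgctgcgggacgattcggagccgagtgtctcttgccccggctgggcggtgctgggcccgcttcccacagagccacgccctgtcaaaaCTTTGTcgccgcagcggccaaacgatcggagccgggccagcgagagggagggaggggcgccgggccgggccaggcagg
Runx1 upstream start, chr16:92826025-92826324, minus strand: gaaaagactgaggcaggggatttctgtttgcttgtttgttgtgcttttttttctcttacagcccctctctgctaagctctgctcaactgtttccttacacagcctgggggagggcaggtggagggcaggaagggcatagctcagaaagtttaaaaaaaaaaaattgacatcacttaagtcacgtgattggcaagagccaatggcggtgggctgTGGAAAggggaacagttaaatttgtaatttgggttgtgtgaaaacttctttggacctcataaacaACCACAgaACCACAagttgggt

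The motifs searched were TAATTA for LIM homeodomain factors, TTTCCA for NFAT, ACAAAG for Sox factors, CTTTGA for Tcf/Lef, TGTGGT for Runx, GTAAACA for Fox, AGATAA for GATA, AGGTGTGA for T-box and TAATTG for Msx factors, none of which overlapped another in the windows shown. The Msx2 window held TAATTA, which 5.29% of all 32851 windows hold. The Tcf7l1 window held ACAAAG in reverse, a motif of 18.7% of windows. The upstream Runx1 window held the Runx core in reverse at 2 positions, both after the transcription start, and the NFAT core in reverse, found in 16.8% and 21.4% of windows. The other Runx1 window, not shown, held the NFAT core 11 bases before its start, and the Foxc1 window held the Runx core. Among all 10 windows of the 7 genes, those of Lhx2, Gata3 and Tbx1 held none of the 9 motifs. The share of G and C was 75.3% in the Tcf7l1 window, 74.7% in the Lhx2 window shown and 45% in the upstream Runx1 window, with a median of 52.7% over all windows. A match describes letters, not binding.

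On the VEGF-labelled array 6 of the 9 genes were lower by 2-fold or more and 0 were higher by that much, where 8.54% of the 12195 genes with a ratio were that much lower and 3.87% that much higher. The 6 were Lhx2, Msx2, Nfatc1, Gata3, Sox9 and Tbx1. Tcf7l1 and Runx1 had ratios below 0 but within 2-fold, and Foxc1 was near equal. The median log2 ratio of the 9 genes was -1.05, against -0.04 over all genes with a ratio, and 8 of the 9 ratios were below 0, as were 52.9% of all. By probe set, 8 of the 21 with a ratio passed 2-fold in the lower direction and 0 in the higher, where 10.3% and 3.53% of all named probe sets with a ratio were. Higher genes made up 31.2% of all genes 2-fold apart as deposited, 51.1% after quantile normalization and 57.8% after loess normalization, and 6 of the 9 genes passed 2-fold in the lower direction in each case. In the same order, 8.54%, 4.73% and 4.13% of all genes with a ratio were that much lower. With an offset of 50 added to every signal, which shrinks the ratios of dim probe sets, only Lhx2 of the 9 was at least 2-fold lower. Of all genes, 0.83% were at least 2-fold lower with that offset, or 0.41% where the medians were first matched by a factor. Higher genes made up 58.1% and 86.2% of all those 2-fold apart in these 2 forms. The genes were chosen with earlier results of these arrays known, so their shared direction is a description.

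**Figure D1:**
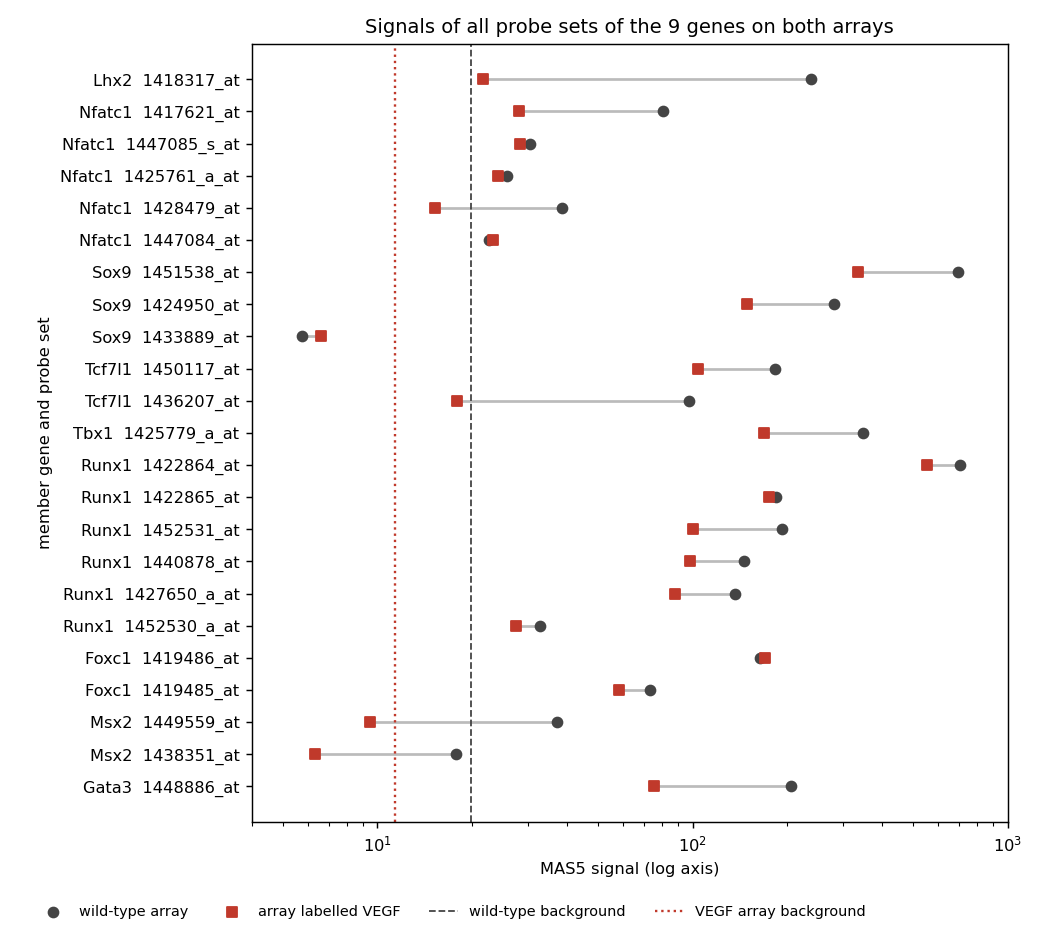
MAS5 signal on a log axis of each of the 23 probe sets on the wild-type array (circles) and the VEGF-labelled array (squares), with each array's background as a vertical line. The square lies left of the circle for 20 of the 23 probe sets, and 2 probe sets lie below background on both arrays. Of the 21 with a ratio, 19 had one below 0, where 54.6% of all named probe sets with a ratio did.

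Lhx2, the LIM homeodomain factor that keeps bulge stem cells in an undifferentiated state in the mouse, differed most. Its single probe set, 1418317_at, gave signals of 237 for wild-type and 21.6 for VEGF. The wild-type signal was 11.9 times its background and the other 1.90 times its own. The log2 ratio was -3.46, or 11.0-fold lower, 6.95 times the SD between probe sets at this signal. Only 3 of the 12195 genes with a ratio had a lower one. No further Lhx2 probe set was there to set beside it. Across 11 other ways of processing the arrays its ratio lay between -3.46 and -1.78, and it was at least 2-fold lower in all 11.

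Nfatc1, the calcineurin-responsive factor that holds mouse bulge cells at rest, was read by 5 probe sets with unlike ratios. Its brightest, 1417621_at, gave signals of 80.6 for wild-type and 28.0 for VEGF, a log2 ratio of -1.52. A further one, 1428479_at, gave 38.5 and 15.2, a log2 ratio of -1.34. The remaining 3 were nearly equal on both arrays. Signals were 30.4 and 28.3 for 1447085_s_at, 25.8 and 24.1 for 1425761_a_at and 22.6 and 23.2 for 1447084_at, wild-type first, with log2 ratios between -0.11 and 0.04. On the wild-type array these 3 lay between 1.14 and 1.53 times background. The SD over the 5 ratios was 0.76, larger than in 89.2% of the 787 genes that had 4 or more such measured probe sets, whose median was 0.39. The median over the 5 probe sets was -0.11, so the 2-fold difference of Nfatc1 rests on which probe set is read. The annotation used here does not say which transcripts each one reads.

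Sox9, an HMG-box factor needed to form and maintain the bulge, was lower by both of its probe sets above background. Probe set 1451538_at gave signals of 695 for wild-type and 336 for VEGF, a log2 ratio of -1.05. Probe set 1424950_at gave 281 and 149, a log2 ratio of -0.91. The 2 ratios differ by 0.14, less than the SD between probe sets. The remaining probe set, 1433889_at, had signals of 5.75 and 6.61, below background on both arrays, and got no ratio.

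Tcf7l1, an HMG-box partner of β-catenin that mostly represses its targets and holds back differentiation in bulge cells, was lower by both probe sets but to unlike degrees. Probe set 1450117_at gave signals of 183 for wild-type and 104 for VEGF. Its log2 ratio of -0.82 is the first outside the 2-fold limit, next to Sox9 and Tbx1 just inside it. The dimmer 1436207_at gave 97.3 and 17.9, a log2 ratio of -2.44, or 5.44-fold lower. The gap of 1.62 between the 2 ratios exceeds the SD at either signal. The median over both, -1.63, would place Tcf7l1 past 2-fold.

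Tbx1, a T-box factor that supports renewal of hair follicle stem cells, gave signals of 348 for wild-type and 169 for VEGF by its single probe set, 1425779_a_at. The log2 ratio was -1.05, 3.26 times the SD at this signal, and it ranked 921 from the lowest of 12195 genes. To 2 decimals this equals the Sox9 ratio.

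**Figure D2:**
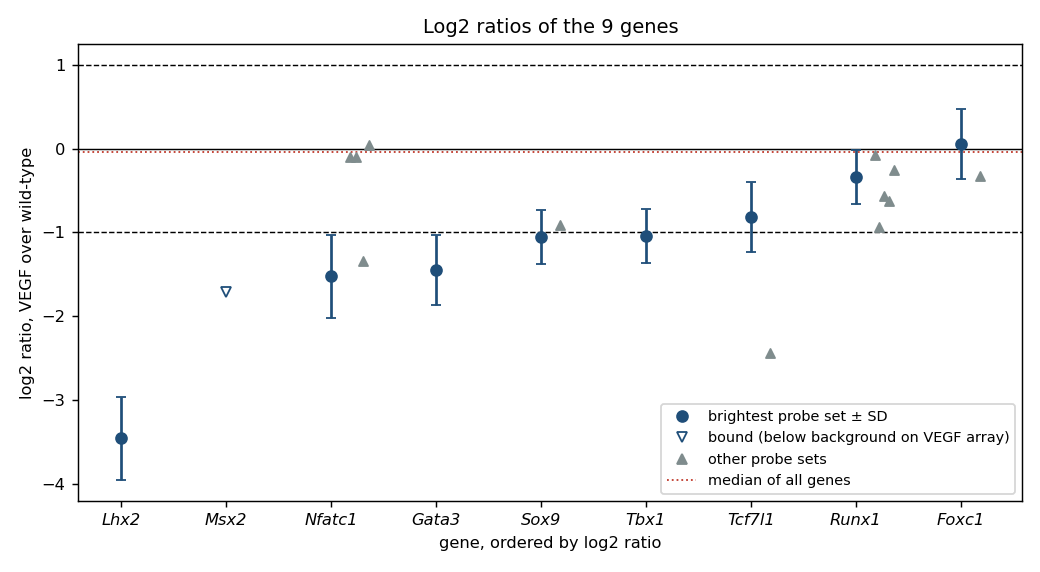
Log2 ratio of each of the 9 genes, ordered from lowest to highest, with the brightest probe set and ± 1 SD between probe sets of a gene (the open triangle for Msx2 is a bound with no SD), other probe sets as grey triangles, 2-fold as dashed lines and the median of all genes as a dotted line. Lhx2 stands lowest at -3.46, and Msx2 is placed at its bound of -1.71. Nfatc1, Gata3, Sox9 and Tbx1 lie between -1.52 and -1.05. Foxc1 at 0.05 is the only one above 0, which turned to -0.14 with the median over its probe sets, while Runx1 turned to 0.04 with an offset of 50 and scaled medians.

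Runx1, which promotes the entry of hair follicle stem cells into the cycle and is known to be needed for skin tumour formation in mice, was the member with most probe sets. All 6 were above background on both arrays and all 6 ratios were below 0, though none reached 2-fold. The brightest, 1422864_at, gave signals of 706 for wild-type and 556 for VEGF, a log2 ratio of -0.34, 1.07 times the SD. The largest difference was that of 1452531_at, with 192 and 100.1 and a log2 ratio of -0.94. The smallest was that of 1422865_at, with 183 and 174 and a log2 ratio of -0.07. The other 3 ratios were -0.63, -0.57 and -0.25. Their SD of 0.31 was larger than in 32.7% of the 787 genes, and below that of the Nfatc1 probe sets. With an offset of 50 after scaling the medians to be equal, the brightest gave 0.04.

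Foxc1, a forkhead factor that returns activated hair follicle stem cells to rest, was the gene closest to equal. Probe set 1419486_at gave signals of 164 for wild-type and 170 for VEGF, a log2 ratio of 0.05. The dimmer 1419485_at gave 73.3 and 58.3, a log2 ratio of -0.33. Both are within 1 SD of 0.

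Among the factors of the differentiating hair lineages, Gata3, a zinc-finger factor that specifies the inner root sheath, gave signals of 205 for wild-type and 75.4 for VEGF by its single probe set, 1448886_at. The log2 ratio was -1.45, or 2.72-fold lower, 3.46 times the SD, and both signals were well above background, at 10.3 and 6.65 times it. Msx2, a homeobox factor of the hair matrix and shaft, was near background. Its brighter probe set, 1449559_at, gave signals of 37.0 for wild-type and 9.48 for VEGF, which is below background there and gives a ratio of at least 3.26-fold lower. The other, 1438351_at, had signals of 17.7 and 6.33, below background on both arrays. With a floor of 19.9 on both arrays the Msx2 bound was only 0.90 below 0 on the log2 scale, under 2-fold.

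Msx2, with only a bound, has no place in the order of ratios. Among the 8 genes measured on both arrays, Lhx2 lay 1.93 on the log2 scale below the next gene, Nfatc1, which is 2.75 times the SD of such a gap. From Nfatc1 through Gata3, Sox9, Tbx1, Tcf7l1 and Runx1 to Foxc1, each gene was separated from the next by 0.00 to 0.47, less than the SD of the gap, so neighbours are not resolved. Of the 21 pairs among these genes, 5 lay more than 2 SD apart: Foxc1 from Nfatc1, Gata3, Sox9 and Tbx1, and Runx1 from Gata3. This SD covers disagreement between probe sets only.

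The related genes were looked at next, in lists that also carry earlier knowledge of these data. Among 29 other hair follicle transcription factors with a ratio, 7 passed 2-fold in the lower direction and 1 in the higher. Their median log2 ratio was -0.57, against -0.04 over all genes. The largest ratios were those of Twist2, a basic helix-loop-helix factor more typical of mesenchyme, 3.76-fold higher with 84.6 on the VEGF-labelled array against 22.5, Gata6, a zinc-finger factor of the upper follicle, at least 3.67-fold lower, and Gli2, the main activator of Hedgehog signalling, 2.62-fold lower with 73.8 against 194. Zfp36l1, an RNA-binding protein gene placed in this list although it is no transcription factor, was its brightest, with a signal of 1858 against 3426. The other 5 lower genes, named after their values were seen, were Tcf7l2, Barx2, Sox4, Lef1 and Hoxc13. Sox4, an HMG-box factor, had 1546 against 3795 and a log2 ratio of -1.30, with 5 further probe sets between -1.93 and -0.60. With the offset of 50 the count of lower genes was 3, and 0 when the medians were also scaled.

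Cofactors and relatives of the 9 factors had a median of -0.27 over 30 genes with a ratio. By 2-fold, 4, or 13.3%, were lower (Gata6, Tcf7l2, Lef1 and Nfatc2), where 8.54% of all genes with a ratio were. Only 1, Isl1, was higher, as a bound at low signal. Nfatc2 was near background, with 14.8 against 30.0, and its other probe sets with a ratio gave -1.13 and 0.29. With a common floor its log2 ratio was -0.60, under 2-fold. The median of the list was 0.06 with the offset of 50 after scaling the medians. Gata6, Tcf7l2 and Lef1 stand in both lists, the last 2 as Wnt effectors. Isl1 had 43.3 against 8.89, with a log2 bound of 1.13 and 1.68 by its other probe set, so it is not ranked against them. Tcf7l2 had a signal of 109 against 282, with a log2 ratio of -1.37 and 3 further probe sets between -1.38 and -1.18. Lef1 had 18.7 against 41.6 and a log2 ratio of -1.16. The ratios of Tcf7l1 and Tcf7l2 were below 0 in 11 of 11 other settings, and that of Lef1 in the 10 that gave one. β-catenin itself, Ctnnb1, the brightest of the list, had 3442 against 3521, and its other probe sets gave 0.40 and 0.59. Cbfb, the obligate partner of Runx proteins, had 759 against 903, and the Lhx2 cofactor gene Ldb1 had 98.1 against 119. Calcineurin, the phosphatase that activates NFAT proteins, was read by its subunit genes Ppp3cb (364 against 396) and Ppp3r1 (671 against 704), but their dimmer probe sets reached -1.56 and -1.57. Of its further catalytic subunit genes, Ppp3ca had a log2 ratio of -0.43 and Ppp3cc, at low signal, had 27.1 against 15.7, below background on the wild-type array.

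**Figure D3:**
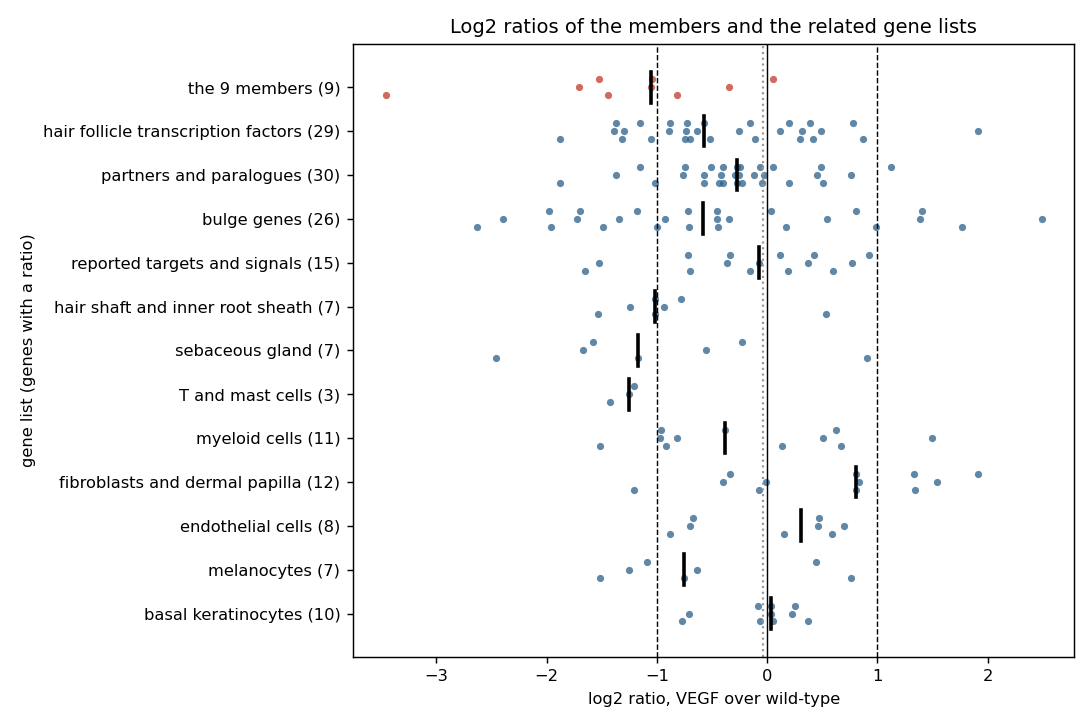
Log2 ratio of every gene with a ratio in the 9 members and in 12 related lists (number of genes in brackets), with the list median as a black bar, 2-fold as dashed lines and the median of all genes as a dotted line. The members' median of -1.05 lies left of those of the other hair follicle factors (-0.57), the bulge genes (-0.58) and the partners and paralogues (-0.27, which was 0.06 with an offset of 50 and scaled medians), while basal keratinocyte genes lie around 0.03 (-0.02 with the median over probe sets).

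Structural and signalling genes of the bulge went in both directions. Among 26, 9 were lower by 2-fold or more, and 4 (S100a4, Krt19, Tnc and Fst) were higher by as much, around a median of -0.58. Krt19 is a bound, since its wild-type signal did not pass background, and the other Tnc probe set gave 0.00. Wif1, a secreted Wnt inhibitor, had a signal of 15.0 against 93.0, and Igfbp5, which binds insulin-like growth factors, 69.3 against 365, although its other probe set gave -0.78 where this one gave -2.39. S100a4, a calcium-binding protein, was the highest, with 2284 against 407. Its relative S100a6, the brightest of the list, had 6526 against 5798. Cd34, the antigen used for the sort, had 751 against 430, a log2 ratio of 0.80, opposite in sign to 8 of the 9 factors. Krt15, a bulge keratin named after its values were seen, had 999 against 2806 (-1.49).

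Genes reported to act directly above or below the 9 factors went in both directions. Their median was -0.07 over 15 genes and was above 0 in 5 of 11 other settings. By 2-fold, 2 were lower and 0 higher. The lower ones were Shh, the Hedgehog ligand gene, at low signal (11.6 against 36.3, under 2-fold with a common floor), and Inhbb, an activin subunit gene, with 296 against 854. Inhba, the other activin subunit gene, had 281 against 149, a log2 ratio of 0.92. Socs3, a feedback inhibitor of cytokine signalling, was the brightest, with 2502 against 3217. Cdk4, a cell cycle kinase gene that Nfatc1 represses in mouse bulge cells, was named after its values were seen and had 932 against 692, a log2 ratio of 0.43 with other probe sets at 0.24 and 0.54.

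The cells carried markers of their labelled epithelial identity. By their brightest probe sets, all 10 basal keratinocyte genes were above background on both arrays and none was 2-fold apart. Krt14 and Krt5 had signals of at least 7875. Trp63, named after its values were seen, had 1587 against 2706, a log2 ratio of -0.77, with 3 further probe sets between -2.52 and -0.37. Of the other sort antigens, Itga6 had 2421 against 3952 and Epcam 1905 against 1597, though a dimmer Epcam probe set gave -1.16. Vegfa, the gained gene, had 397 against 804 (log2 ratio -1.02, other probe set -1.26), and whether its probe sets read the transgene is not known here, so directions follow the label. Runx1, Gata3, Nfatc1 and Foxc1 are also used by immune, endothelial and dermal cells. The pan-T-cell genes Cd3e, Cd3d, Cd3g and Cd2 were below background on both arrays, as were Cpa3 and Ms4a2 of mast cells. Of 14 measured T- and mast-cell genes 3 had a ratio, Cd8a, Kit and Thy1, all 3 lower by 2-fold or more (Kit as a bound), and the summed signal of the 14 was 99.7 on the VEGF-labelled array against 206. None of the 4 other Cd8a probe sets gave a ratio. The count of lower genes was 2 with a common floor and 1 after quantile or loess normalization. Endothelial genes summed to 241 against 207 over 12 genes, led in signal by Kdr and Lyve1, with Tie1, Tek and Vwf below background on both. Fibroblast and dermal papilla genes summed to 3769 against 1863 over 15 genes. By 2-fold, 4 of 12 were higher (Col3a1, Col1a2, Sox2 and Twist2) and 1, Thy1, lower. Sox2, with 685 against 271, is also known as a driver of squamous tumours, so it need not mark dermal cells here. Of the dermal papilla genes, Corin was below background on both arrays and Sox18 and Alpl on the wild-type array. Myeloid genes summed to 1900 against 1130 over 14 genes. S100a8, which keratinocytes also express, had 1279 against 455, and without it the other 13 genes summed to 621 against 676. H2-Ab1 had 194 against 137, a log2 ratio of 0.50, with other probe sets at -0.82 and 0.13. H2-Aa, named after its values were seen, had 58.5 against 168, a log2 ratio of -1.52. Its 2 further probe sets with a ratio lay between -2.08 and -1.26. By 2-fold, 1 of 11 myeloid genes was lower, H2-Aa, and 1, S100a8, was higher. The genes of the antigens stained with the shared dye were above background on the VEGF-labelled array and below it on the wild-type array. Ptprc (CD45) had 17.3 against 14.4, Pecam1 (CD31) 22.0 against 3.07 and Pdgfra (CD140a) 34.7 against 9.86. Background differed between the arrays, and both Ptprc signals lay between the backgrounds of 11.3 and 19.9, so Ptprc got no ratio. As bounds, Pecam1 was at least 1.11-fold and Pdgfra at least 1.75-fold higher. The other probe sets of Ptprc and Pdgfra gave no ratio.

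Summed markers of other skin lineages were lower on the VEGF-labelled array. These sums, and those above, hold the signals of all genes of a list, also those below background. Background and median signal were both lower on the VEGF-labelled array, which bears most on lists of dim genes. The 10 basal keratinocyte genes also summed lower there, to 33038 against 35271. Melanocyte genes summed to 263 against 461 over 9 genes, and 3 of 7 were lower by 2-fold: the pigment genes Dct (53.6 against 153) and Tyrp1, and Kit as a bound. Pmel, with Dct the brightest 2 of the list, had 50.9 against 85.8, a log2 ratio of -0.75. The 2 with ratios above 0 were Ednrb (0.44) and Sox10, whose bound of 0.76 stands beside -1.20 by its other probe set. Sebaceous genes summed to 1794 against 2257 over 9 genes, and 4 of 7 were lower by 2-fold (Scd1, Pparg, Cidea and Elovl3), with Plin2 and Scd1 the brightest. Fasn, a fatty acid synthase gene of that list named after its values were seen, was higher, with 684 against 365. Structural genes of the hair shaft and inner root sheath summed to 521 against 566 over 17 genes and had 4 of 7 at least 2-fold lower, or 1 with a common floor, and 10 of the 17, among them Krt31, Krt25 and Krt71, had no ratio. Padi3 (382 against 264) and Tchh (41.7 against 84.3) were the brightest of them. The part that any of these cell types has in the ratios of the 9 factors was not tested.

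**Figure D4:**
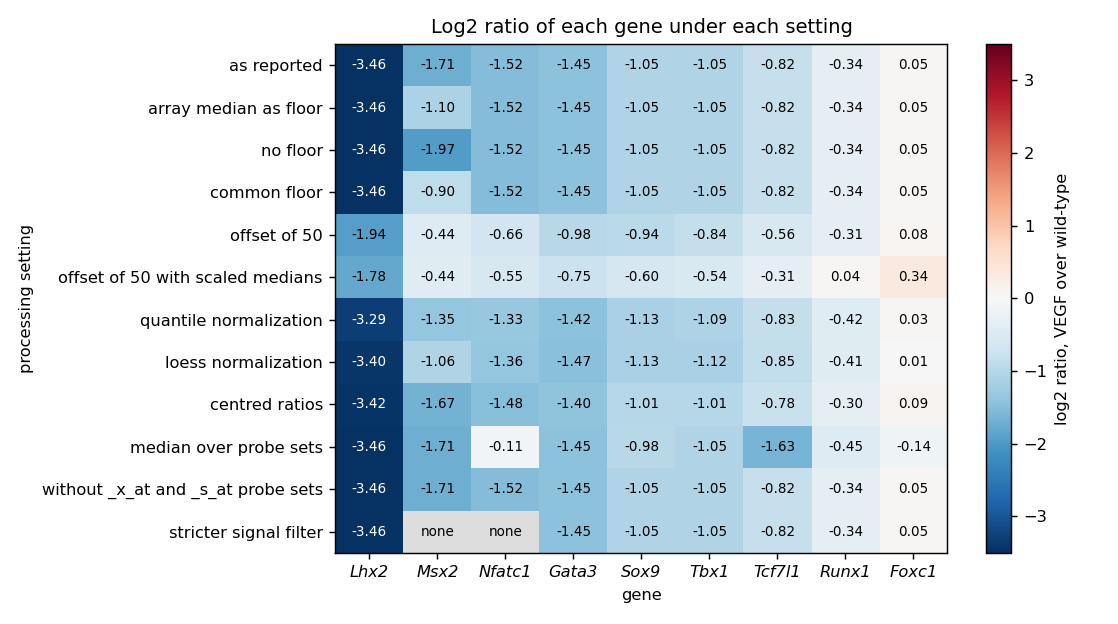
Log2 ratio of each of the 9 genes (columns) as reported and under 11 other settings (rows), with colour from blue (lower on the VEGF-labelled array) to red (higher) and grey where no ratio was given. Lhx2 stays between -3.46 and -1.78, Nfatc1 reaches -0.11 with the median over its probe sets, and the signs of Runx1 and Foxc1 change in 1 setting each.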

How the data were processed

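RNA of sorted CD34+ tumour epithelial cells (100 ng per sample, per the labels' protocols) was labelled and hybridised to 1 array per genotype. The deposited values are log2 signals made with MAS5, per the submitters' processing notes; its version and target value the sources used here do not give. Both arrays had a 2% trimmed mean of 100.04 after anti-logging, and their medians were 22.6 (wild-type) and 17.3 (VEGF).

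Of 45101 probe sets, 34958 had exactly 1 gene in the platform annotation. Background was the 90th percentile of the receptor probe sets. A gene took its probe set of highest mean log2 signal, and a gene got no ratio where neither signal passed background, or where raising 1 signal to background left no bound. There was no test. Functions were tested on simulated arrays. Loess used a span of 0.3 (statsmodels 0.14.6, Python 3.11.15). The members and lists were chosen with earlier results of these data known. Genes named were all 9 members with every probe set, the 3 largest ratios and the brightest gene of each related list, the 2 brightest and absent defining genes of each marker list, and the sort genes with Vegfa. Some genes were named because they were 2-fold apart. Cbfb, Ldb1, the calcineurin genes, Ednrb and Sox10 also stand outside these rules. Others are stated as named after their values were seen. Array number limits the precision.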

Additional observations from a re-analysis of the deposited data

How the results depend on the processing

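10 planned settings and 1 chosen after seeing the data (an offset of 50 with the medians matched by a factor) were run. The planned wording did not say how medians are matched before the offset, and a shift was used. The count of the 9 genes at least 2-fold lower was 6 as reported and 4 to 6 in 9 of the planned settings, and 1 with the offset of 50 in either form, while 0 were at least 2-fold higher throughout. The genes counted were not always the same. With the median over probe sets they were Lhx2, Tcf7l1, Tbx1, Msx2 and Gata3, without Nfatc1 and without Sox9, which gave -0.98. The count of 4, under the stricter signal filter, was of 7 genes with a ratio. The median of the 9 genes was -1.05 as reported and -0.54 with scaled medians. Both offsets also moved the median of all genes, from -0.04 to 0.08 and 0.10, and the 9 genes' median less that of all genes was -0.74 and -0.64. Msx2 and Nfatc1 got no ratio under the stricter signal filter. Over all genes, 1041 lower and 472 higher became 2770 and 1675 with no floor, 624 lower with a common floor, 151 and 209 with the offset of 50, 75 lower with scaled medians, 596 and 547 lower and 623 and 748 higher after quantile and loess normalization, and 298 and 297 with the stricter filter. The T- and mast-cell median changed sign to 0.093 with the offset of 50 and the hair shaft median to 0.54 with the stricter filter (1 gene). Counts of lower genes ranged from 0 to 7 for other follicle factors, 0 to 6 for partners, 5 to 10 for bulge genes, 1 to 2 for reported targets, 0 to 8 for hair shaft, 0 to 4 for sebaceous, melanocyte and myeloid genes, and 0 to 7 for T and mast cells. The causes were not tested. No paired analysis was possible because each group holds 1 array.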

Other observations

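Relatives of the 9 factors, grouped by gene symbol after the data were seen, gave the following values, some for genes that also stand in the lists above. Eomes, a T-box relative of Tbx1 known from early development and lymphocytes, had a signal of 215 on the VEGF-labelled array and 8.28, below background, on the wild-type array. It was at least 10.8-fold higher, its other probe set gave a log2 ratio of 2.87, and its ratio stayed between 2.27 and 4.70 in the 10 other settings that gave one. Sox2, an HMG-box relative of Sox9 known as a driver of squamous tumours, had 685 against 271, a log2 ratio of 1.34 where Sox9 gave -1.05. Sox11 had 178 against 67.9 (1.39), but its other probe sets lay between -0.15 and 0.75. Sox7 had 265 against 532 (-1.01, other probe set -1.75).

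All 4 GATA genes with a ratio had ratios below 0, Gata2 at 30.3 against 50.8 and Gata4 at 18.3 against 33.4 besides Gata3 and Gata6, with a family median between -1.45 and -0.16 in the other settings. Of 12 LIM homeobox genes, 3 were above background on the wild-type array. Isl2 had 12.1 against 46.4 and Lmx1b 14.1 against 34.3, both near background, while Isl1 had 43.3 against 8.89. The family's sign was not stable, at 0.11 with the offset of 50 and 0.01 after loess normalization. Msx1 and Msx3, relatives of Msx2, had 60.7 against 53.0 and 56.3 against 22.9, so neither shared its direction. Among the NFAT genes Nfatc3 had 205 against 198, and Nfat5 132 against 137 with other probe sets between -1.19 and -0.79. Foxc2, the closest relative of Foxc1, had 108 against 77.5.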
